A study of Mus musculus with 6 samples.

Results

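Serine synthesis and folate one-carbon metabolism were followed through 10 enzyme genes of the mouse: Phgdh, Psat1, Psph, Shmt1, Shmt2, Mthfd1, Mthfd1l, Mthfd2, Aldh1l1 and Aldh1l2. They were chosen by symbol, with earlier results of these arrays known, and each was read from the single probe set that carries its symbol. All 10 were found among the 19505 genes with a symbol on the array. Transcript levels were measured in 3 lines derived from melan-a, melanocytes of C57BL/6J mice that are immortal in culture, with 2 Affymetrix Clariom S arrays each. The mKitK641E(T) line (T) and the mKitK641E(PT) line (PT) carry Kit, the receptor for stem cell factor, with the activating substitution K641E, and the labels describe them as melanoma transformed by it. The titles add C3# for T and hi exp for PT, and the sources used here do not say what these marks stand for. The mVec line carries the control vector CD516B2 and is labelled as melanocytes. All lines were grown in RPMI medium with serum and without treatment. Each group is 1 line, and nothing says that its arrays came from separate cultures, so that errors and p-values reflect how far arrays of the same line differed, which may be technical, and say nothing of other lines made in the same way.

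Cells make serine from an intermediate of glycolysis in 3 steps. Phgdh oxidizes phosphoglycerate, Psat1 transfers an amino group to the product, and Psph removes the phosphate. The Shmt enzymes then split serine into glycine and a carbon unit that is loaded onto tetrahydrofolate, and the Mthfd enzymes convert the loaded folate between its oxidation states or release the carbon as formate. The mitochondrial branch (Shmt2, Mthfd2, Mthfd1l, Aldh1l2) and the cytosolic branch (Shmt1, Mthfd1, Aldh1l1) are joined by the exchange of serine, glycine and formate. Carbon units from this cycle are used to build purines and thymidylate, and Phgdh lies in a region that is amplified in some human melanomas. Many of these genes are known targets of ATF4, the transcription factor of the amino acid response.

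The deposited values are log2 expression values, and a difference of 1 is a 2-fold change on the deposited scale. Of 22206 gene probe sets, 29.0% to 32.6% per array lay above a background limit (8.74 to 9.16), the value that 95% of 5222 negative controls stay under. A group is called at background where neither of its arrays passes its own limit. A fold against such a group is given as "at least", from the bright group's mean to the limit, and no fold is given where both groups are at background. Kit itself was under the limit on all 6 arrays and gives no check of the labels. Of 9 melanocyte markers, 7 were also never above the limit, namely Tyr, Tyrp1, Dct, Pmel, Mlana, Sox10 and Slc45a2. Gpnmb went the other way and passed it on all 6 arrays, with group means of 15.27 (mVec), 13.82 (T) and 12.84 (PT). Mitf passed it on the T arrays alone, at 9.01 and 9.10. Most of these markers, though not all, thus fail to bear out the labelled cell type on these arrays. Differences were tested with limma in 1 model over all 6 arrays, with Benjamini-Hochberg adjustment across the whole set of gene probe sets and a threshold of 0.05. Having only 2 arrays per line limits the precision.

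Of the 10 enzymes, 9 were higher in T than in mVec and 8 were higher in PT than in mVec, and 0 were lower in either line. The exceptions were Aldh1l1, at background everywhere, and Phgdh in PT. Over all gene probe sets, 16.9% were called higher and 15.5% lower in T than in mVec, and 17.9% were called higher and 18.0% lower in PT than in mVec. Among the 8312 probe sets above the limit on at least 1 array, the share called higher was 36.2% in T and 36.9% in PT. The median log2 difference of the 10 genes was 2.77 for T minus mVec, against 0.01 over all probe sets, and 2.84 for PT minus mVec, against 0.08. Both comparisons use the same mVec arrays. Among the called enzymes with both groups above background, the differences ran from 2.11 for Psat1 to 3.80 for Aldh1l2 in T and from 2.23 for Psat1 to 4.09 for Psph in PT. Those of Phgdh, Shmt1 and Mthfd1 are set against mVec at background, so their folds are lower bounds.

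**Figure D1:**
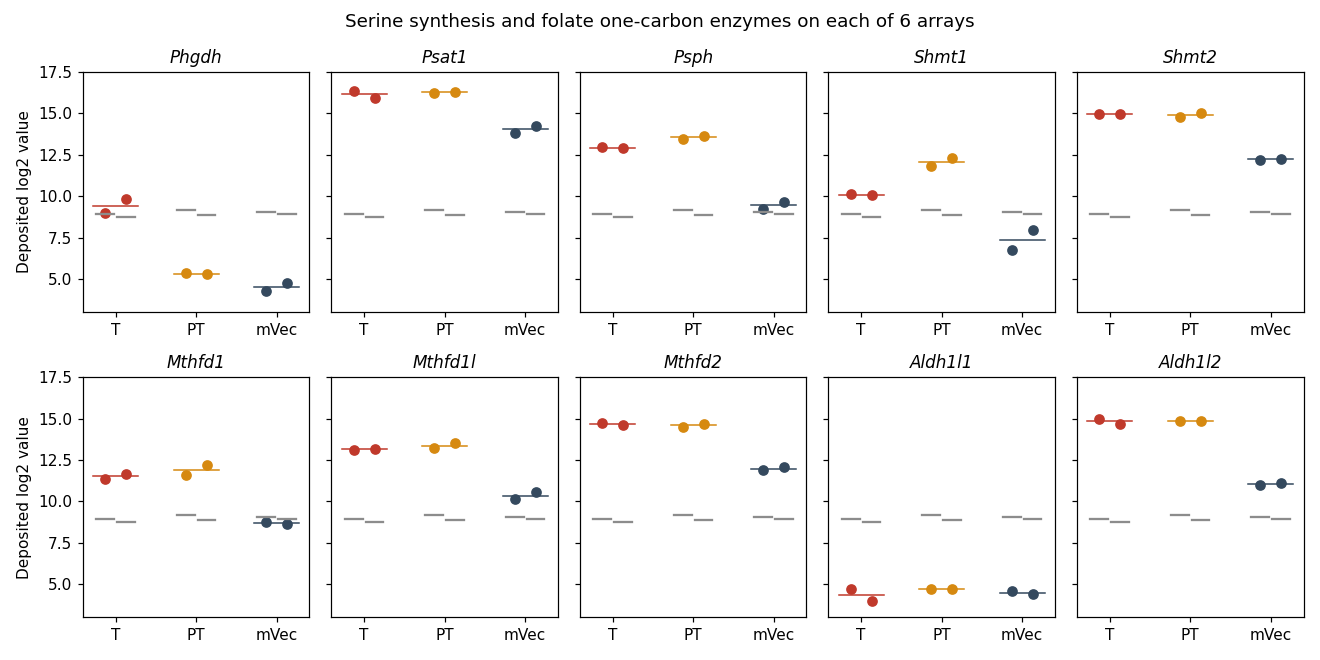
Deposited log2 values (y axis) of the 10 enzymes in T, PT and mVec, 1 point per array, with the group mean as a coloured line and each array's background limit as a grey dash. For 8 enzymes both Kit lines lie above mVec, Phgdh passes the limit only on the T arrays, and Aldh1l1 is under it on all 6 arrays.

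**Figure D2:**
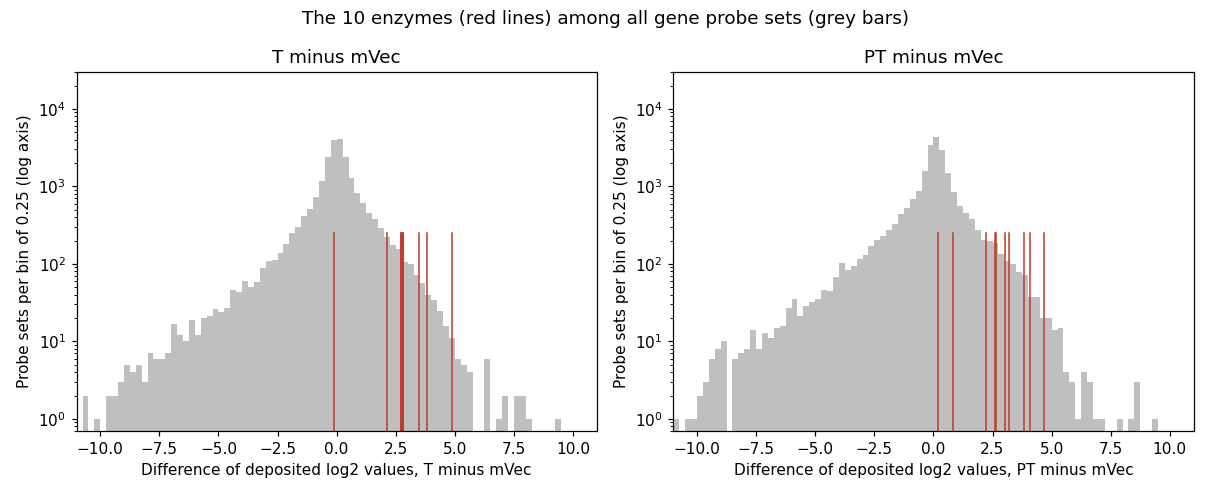
Number of gene probe sets (y axis, log scale) by difference of log2 values (x axis, bins of 0.25), with the 10 enzymes as red lines, for T minus mVec (left) and PT minus mVec (right). In T, 9 of the lines stand at 2.11 or more and Aldh1l1 stands at -0.13. In PT, 8 stand at 2.23 or more, with Phgdh at 0.81 and Aldh1l1 at 0.21.

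The first enzyme of serine synthesis was above background in T alone. Phgdh had log2 values of 9.00 and 9.83 in T, 5.38 and 5.28 in PT, against 4.29 and 4.75 in mVec. Only the T arrays passed their limits, the first of them narrowly, at 9.00 against a limit of 8.93. Phgdh was called higher in T than in mVec by 4.90 ± 0.29 (SE, limma adjusted p = 1.42e-06). As mVec was at background, this stands for at least 1.33-fold, or at least 2.93-fold when the limit is set at the 90th percentile of the negative controls. With the limit at the 99th percentile (12.15 to 13.07), Phgdh lay under it on every array, T included, and no fold could be given. In PT the difference from mVec was 0.81 ± 0.29 and did not pass (adjusted p = 0.0587). Neither group was above its limits. The value lay close to the threshold, and 8 of 15 alternatives gave an adjusted p under 0.05, the lowest being 0.0208. These 8 are not separate checks. Leaving out either T array and fitting PT and mVec alone gave the same error and adjusted p for this comparison. The filter on arrays above background kept Phgdh only through its T arrays, and the mean used by the other filter includes them. T exceeded PT by 4.09 ± 0.29 (adjusted p = 0.000216), at least 1.32-fold, and at least 2.90-fold with the lower limit.

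The transcripts of the other enzymes of serine synthesis were high in both Kit lines. Psat1, which makes phosphoserine, had log2 values of 16.36 and 15.93 in T, 16.23 and 16.30 in PT, against 13.84 and 14.24 in mVec. Every array of the Kit lines lay above both mVec arrays, while T and PT overlapped. The difference from mVec was 2.11 ± 0.24 in T (limma adjusted p = 8.16e-05) and 2.23 ± 0.24 in PT (adjusted p = 4.26e-05), which is 4.31-fold and 4.68-fold. Psph, the phosphatase of the last step, had 12.98 and 12.88 in T, 13.47 and 13.61 in PT, against 9.25 and 9.65 in mVec. It stood just above the limit in mVec and far above it in both Kit lines. Psph was 11.2-fold higher in T (3.48 ± 0.22, limma adjusted p = 1.86e-06) and 17.0-fold higher in PT (4.09 ± 0.22, adjusted p = 4.84e-07). The T and PT arrays of Psph did not overlap, but their difference of -0.61 ± 0.22 did not pass (limma adjusted p = 0.132). In PT, therefore, the probe sets of the later steps, Psat1 and Psph, were bright while that of Phgdh was at background.

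The promoter windows of the 3 serine synthesis genes are shown because these genes differ in pattern while sharing a pathway. They run from 250 bases before to 50 after the start site, 5′ to 3′, in RefSeq's build GRCm38.p6, and capitals mark the CCAAT box on either strand (CCAAT or ATTGG), the site known for the factor NF-Y. Psat1 has a second window in the table, which holds no CCAAT box.
Phgdh, chr3:98339920-98340219, minus strand: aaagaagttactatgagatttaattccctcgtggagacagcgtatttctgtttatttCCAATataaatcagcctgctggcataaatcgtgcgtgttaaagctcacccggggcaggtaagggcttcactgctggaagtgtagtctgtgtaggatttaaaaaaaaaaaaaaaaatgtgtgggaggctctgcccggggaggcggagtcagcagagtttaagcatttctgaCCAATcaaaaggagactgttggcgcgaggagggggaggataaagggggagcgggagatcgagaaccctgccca
Psat1, chr19:15925010-15925309, minus strand: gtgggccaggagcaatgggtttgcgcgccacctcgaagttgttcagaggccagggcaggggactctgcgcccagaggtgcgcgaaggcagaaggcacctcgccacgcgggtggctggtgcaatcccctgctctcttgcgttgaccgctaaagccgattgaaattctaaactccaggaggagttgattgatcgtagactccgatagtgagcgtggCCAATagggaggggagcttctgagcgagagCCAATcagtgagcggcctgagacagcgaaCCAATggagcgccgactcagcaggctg
Psph, chr5:129787204-129787503, minus strand: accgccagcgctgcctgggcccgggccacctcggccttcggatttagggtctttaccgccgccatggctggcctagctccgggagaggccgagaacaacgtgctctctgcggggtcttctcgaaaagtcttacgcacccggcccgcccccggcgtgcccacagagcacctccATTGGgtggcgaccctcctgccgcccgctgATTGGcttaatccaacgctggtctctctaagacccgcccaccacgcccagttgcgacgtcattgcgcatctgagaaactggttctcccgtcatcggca
Windows were found for 9 of the 10 enzymes, 10 windows in all, and Aldh1l2 had none. A CCAAT box stood in 7 of the 10 windows, against 37.4% of the 32851 windows of the table. A GC box (GGGCGG) stood in 6, against 35.7%. The composite element of C/EBP and ATF factors (TGATGNAA) and the E-box (CACGTG) were in 0 of the 10, against 3.97% and 7.15% of all windows, with both strands searched. A match of letters is a description and not a site of binding, and these letters may lie outside the window. The printed windows of Phgdh and Psph hold 2 CCAAT boxes each and that of Psat1 holds 3.

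The transcripts of both enzymes that split serine, the mitochondrial and the cytosolic form, were higher in both Kit lines than in mVec. Shmt2, the mitochondrial form, had log2 values of 14.97 and 14.97 in T, 14.75 and 15.02 in PT, against 12.21 and 12.24 in mVec. Both Kit lines lay above mVec and overlapped each other. Shmt2 was 6.69-fold higher in T (2.74 ± 0.20, limma adjusted p = 5.27e-06) and 6.31-fold higher in PT (2.66 ± 0.20, adjusted p = 4.55e-06). Shmt1, the cytosolic form, had 10.10 and 10.04 in T, 11.79 and 12.30 in PT, against 6.76 and 7.97 in mVec. The lines were ordered PT, T, mVec with no overlap, and mVec was at background. Shmt1 was at least 2.10-fold higher in T (2.71 ± 0.36, limma adjusted p = 0.000244) and at least 8.24-fold higher in PT (4.68 ± 0.36, adjusted p = 4.69e-06). Its mVec arrays were the most uneven pair among the 10 enzymes, with an SD of 0.85.

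Shmt1 and Shmt2 are set side by side here because they catalyse the same reaction and only Shmt1 was called different between T and PT. Whether the T to PT difference itself differed between the 2 genes was not tested. Capitals again mark CCAAT boxes.
Shmt1, chr11:60811216-60811515, minus strand: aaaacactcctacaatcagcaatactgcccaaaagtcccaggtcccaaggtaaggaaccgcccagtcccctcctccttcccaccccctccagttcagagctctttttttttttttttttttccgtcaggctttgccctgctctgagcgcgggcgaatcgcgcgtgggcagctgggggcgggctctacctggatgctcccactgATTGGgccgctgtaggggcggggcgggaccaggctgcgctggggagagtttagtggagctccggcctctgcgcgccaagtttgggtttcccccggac
Shmt2, chr10:127522395-127522694, minus strand: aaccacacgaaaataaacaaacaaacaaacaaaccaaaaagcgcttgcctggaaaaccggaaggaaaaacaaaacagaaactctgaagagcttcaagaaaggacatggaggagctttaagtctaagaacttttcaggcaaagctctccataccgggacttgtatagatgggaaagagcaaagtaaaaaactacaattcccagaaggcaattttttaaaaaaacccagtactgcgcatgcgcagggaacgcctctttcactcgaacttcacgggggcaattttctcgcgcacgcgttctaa
The window of Shmt1 has a GC content of 60.7%, 4 GC boxes and 1 CCAAT box. That of Shmt2 has a GC content of 42.7% and neither motif.

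The transcripts of the folate-converting enzymes were also higher in both Kit lines. Mthfd2, the mitochondrial dehydrogenase and cyclohydrolase, had log2 values of 14.71 and 14.63 in T, 14.50 and 14.69 in PT, against 11.88 and 12.06 in mVec. Mthfd1l, which releases formate in mitochondria, had 13.10 and 13.19 in T, 13.22 and 13.52 in PT, against 10.12 and 10.58 in mVec. For both genes the mVec arrays lay below all 4 arrays of the Kit lines. Mthfd2 was 6.51-fold higher in T (2.70 ± 0.20, limma adjusted p = 5.88e-06) and 6.16-fold higher in PT (2.62 ± 0.20, adjusted p = 5.00e-06). Mthfd1l was 6.94-fold higher in T (2.79 ± 0.23, limma adjusted p = 1.12e-05) and 8.10-fold higher in PT (3.02 ± 0.23, adjusted p = 4.71e-06). Mthfd1, the cytosolic enzyme with 3 activities that takes up formate, had 11.38 and 11.65 in T, 11.59 and 12.17 in PT, against 8.75 and 8.66 in mVec. Its mVec values lay just under their limits. Mthfd1 was at least 5.69-fold higher in T (2.81 ± 0.24, limma adjusted p = 1.53e-05) and at least 7.36-fold higher in PT (3.18 ± 0.24, adjusted p = 4.68e-06).

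The 2 genes for the enzymes that oxidize formyl-folate to carbon dioxide differed in whether they could be measured. Aldh1l2, the mitochondrial form, had log2 values of 15.00 and 14.70 in T, 14.84 and 14.87 in PT, against 10.97 and 11.11 in mVec. Both Kit lines were bright and overlapped. It was 14.0-fold higher in T (3.80 ± 0.21, limma adjusted p = 8.62e-07) and 14.1-fold higher in PT (3.81 ± 0.21, adjusted p = 5.45e-07). Aldh1l1, the cytosolic form, had 4.73 and 4.01 in T, 4.73 and 4.69 in PT, against 4.60 and 4.40 in mVec. All 6 values were far under the limits of 8.74 to 9.16. The Aldh1l1 differences from mVec were -0.13 ± 0.26 in T (limma adjusted p = 0.775) and 0.21 ± 0.26 in PT (adjusted p = 0.616). The negative sign in T turned when arrays were centred on their medians (0.05) or when T replicate 2 was left out (0.23).

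Grouped by compartment, all 4 mitochondrial enzymes were called higher in both Kit lines, with log2 differences from 2.70 to 3.80 in T and from 2.62 to 3.81 in PT. Of the 6 cytosolic enzymes, 5 were called higher in T and 4 in PT, with differences from -0.13 to 4.90 in T and from 0.21 to 4.68 in PT. The medians were 2.77 for the mitochondrial and 2.76 for the cytosolic enzymes in T, and 2.84 and 2.70 in PT. The cytosolic values include Phgdh, Shmt1, Mthfd1 and Aldh1l1, for which mVec was at background, so neither the medians nor the spread of the 2 groups can be compared from them.

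Between the Kit lines, Phgdh was higher in T and Shmt1 was lower in T, and the other 8 enzymes were not called. Over all gene probe sets 5.67% were called higher and 2.70% lower in T than in PT, and leaving out PT replicate 1 gave 370 probe sets higher and 179 lower, against 1258 and 599 with all arrays. Shmt1 fell by 1.97 ± 0.36 in T relative to PT, 3.92-fold (limma adjusted p = 0.0110). Leaving out T replicate 2 ended this call (adjusted p = 0.0777), as did leaving out PT replicate 1 (0.0512) or PT replicate 2 (0.0849), with differences from -2.23 to -1.72 over all alternatives. The Phgdh call held in all 15 alternatives, with adjusted p-values from 6.88e-06 to 0.00661. The intervals of the uncalled differences show what sizes remain possible. For Shmt2 the 95% interval of T minus PT ran from -0.37 to 0.54, for Mthfd2 from -0.38 to 0.54, for Aldh1l2 from -0.48 to 0.46 and for Psat1 from -0.65 to 0.41. Mthfd1l ran from -0.75 to 0.30, Mthfd1 from -0.92 to 0.18 and Psph from -1.10 to -0.12. The mitochondrial enzymes thus lay within 0.75 of equality on the log2 scale in every case, at this level of confidence and taken 1 gene at a time.

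**Figure D3:**
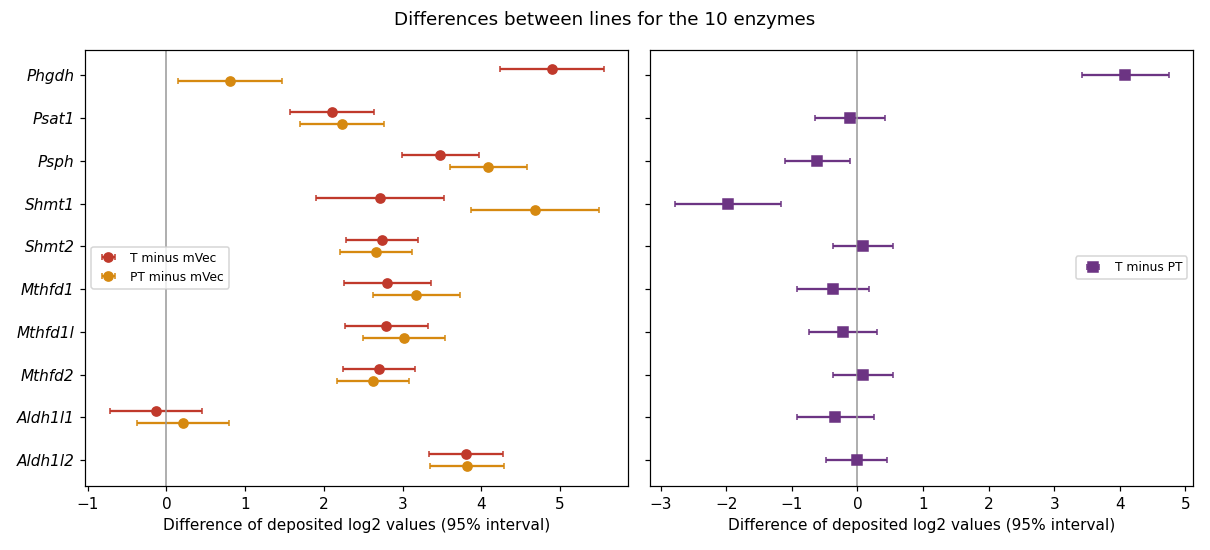
Log2 differences (x axis) with their 95% intervals for the 10 enzymes, against mVec in the left plot (T red, PT orange) and T minus PT in the right plot. Phgdh stands at 4.90 in T and 0.81 in PT, Shmt1 at 2.71 in T and 4.68 in PT, and the 2 colours lie close together for the mitochondrial enzymes.

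The genes around these enzymes were read from lists of 47 pathway genes, of which 39 were measured. Of these, 18 were called higher and 8 lower in T, and 19 higher and 9 lower in PT. Among these calls, 6 in T and 5 in PT had both groups at background. Over all gene probe sets the shares were 16.9% higher and 15.5% lower in T, and 17.9% and 18.0% in PT. Among probe sets above the limit on at least 1 array, 36.2% were called higher in T and 36.9% in PT, which is nearer to the counts of this list. The median difference of the 39 genes was 0.52 in T and 0.51 in PT. The folate cycle list was divided. Against mVec, T had 2 of the 10 measured genes higher and 3 lower, while PT had 3 higher and 3 lower. Slc19a1, the reduced folate carrier that brings folate into the cell, had log2 values of 13.88 and 14.06 in T, 13.88 and 13.77 in PT, against 9.88 and 9.96 in mVec. It was 16.5-fold higher in T (4.04 ± 0.20, limma adjusted p = 4.77e-07) and 14.9-fold higher in PT (3.90 ± 0.20, adjusted p = 4.08e-07). Ggh, the hydrolase that trims polyglutamate tails from stored folate, went the other way, with 6.25 and 6.32 in T, 5.98 and 6.29 in PT, against 10.63 and 10.84 in mVec. It was at background in both Kit lines, at least 3.73-fold lower in T (-4.45 ± 0.21, limma adjusted p = 3.88e-07) and at least 3.29-fold lower in PT (-4.60 ± 0.21, adjusted p = 2.21e-07). Mthfs, which returns formyl-folate from a storage form, was called lower in both lines with all groups at background, and it was the one folate cycle gene called between T and PT (1.19 ± 0.26, limma adjusted p = 0.0221, lost in 3 of 13 alternatives). Mthfd2l, a mitochondrial paralog of Mthfd2, was 3.18-fold higher in T and 4.24-fold higher in PT. Slc25a32, the mitochondrial folate carrier, was 1.78-fold higher in PT (limma adjusted p = 0.0118), a call lost in 3 of 14 alternatives, and its value in T was 0.28 ± 0.21. The call of the folate transporter Slc46a1 as lower (-0.67 in T and -0.83 in PT, at background in every group) was lost in 8 of 12 alternatives in T and in 2 of 12 in PT. Slc25a32 and Slc46a1 were named after their values were seen.

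Transcripts of the enzymes that spend folate carbon units were higher too, and all 3 measured were called in both lines. Probe sets above the limit on at least 1 array were called higher in 36.2% of cases in T and 36.9% in PT. Tyms, which makes thymidylate, was 6.00-fold higher in T and 11.2-fold higher in PT. Its mVec values of 8.88 and 8.97 stood at the background limits (9.06 and 8.95) and only 1 passed, so these folds rest on a value near the floor. Gart, which takes carbon units in purine synthesis, was 4.92-fold higher in T and 9.49-fold higher in PT. Atic, which adds the last carbon to the purine ring, differed from mVec by 2.81 ± 0.21 in T and by 3.42 ± 0.21 in PT. Tyms (-0.91 ± 0.23, limma adjusted p = 0.0422) and Gart (-0.95 ± 0.25, adjusted p = 0.0454) were called lower in T than in PT, and these calls were lost in 7 and 8 of 14 alternatives, each time including every fit that left out an array.

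In the serine and glycine list, 9 of 14 measured genes were higher and 3 lower in each Kit line. Over all gene probe sets, 16.9% were higher and 15.5% lower in T, and 17.9% and 18.0% in PT. With only probe sets above the limit on at least 1 array, the shares called higher were 36.2% and 36.9%. The neutral amino acid carriers Slc1a5 (3.14 ± 0.24) and Slc1a4 (2.85 ± 0.21), the glycine carrier Slc6a9 (2.54 ± 0.28) and the glycolytic enzyme Pgam1 (2.28 ± 0.24), which acts just below the branch to serine, had the largest log2 differences in T. In PT these were Slc6a9 (2.84 ± 0.28), Slc1a4 (2.66 ± 0.21) and Gcsh, the lipoyl carrier protein of the glycine cleavage system (2.59 ± 0.26), with Srr, serine racemase, at least 2.81-fold lower. Gldc, the decarboxylase of the same cleavage system, and its aminomethyltransferase Amt were at background in all groups. The genes called lower in both lines were Sfxn3, a sideroflexin (-1.50 in T and -1.83 in PT), Srr (-1.25 in T) and Amt (-0.75 in T and -1.08 in PT, the call in T lost in 4 of 12 alternatives). The paralog Sfxn1, a mitochondrial serine carrier, went the other way (0.80 ± 0.21 in T and 1.39 ± 0.21 in PT), with the call in T lost without T replicate 1 or without mVec replicate 2. Gldc, Amt, Sfxn1 and Sfxn3 were named after their values were seen. Slc1a5 was called higher in T than in PT (1.14 ± 0.24, limma adjusted p = 0.0190) and lost this call in 2 of 14 alternatives. Pgam1 was called as well (adjusted p = 0.0483), and that call was lost in 8 of 14.

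In the methionine cycle list, 4 of 8 measured genes were higher in each line, 1 was lower in T and 2 were lower in PT. The count of higher genes is not far from the share among probe sets above the limit on at least 1 array. That share was 36.2% in T and 36.9% in PT. Cth, which makes cysteine from cystathionine, was 25.6-fold higher in T (4.68 ± 0.21, limma adjusted p = 2.64e-07) and 20.4-fold higher in PT (4.35 ± 0.21, adjusted p = 2.87e-07). Ahcy, which clears adenosylhomocysteine, was 10.4-fold higher in T and 6.67-fold higher in PT. Mtrr, which keeps methionine synthase active, was at least 2.16-fold higher in T and at least 2.96-fold higher in PT. Mat2b, a regulatory subunit of methionine adenosyltransferase, was 3.84-fold lower in PT (-1.94 ± 0.22, limma adjusted p = 5.57e-05), and its value in T was -0.58 ± 0.22 (adjusted p = 0.0693). T exceeded PT in Mat2b by 1.36 ± 0.22 (limma adjusted p = 0.00605), a call lost without PT replicate 1 (0.0580). Mtr, methionine synthase, named after its values were seen, was called higher in each line and lost the call in 4 of 14 alternatives in both. Cbs, the first enzyme of transsulfuration, was called lower in both lines with all groups at background. Of the 4 genes of choline breakdown, Aldh7a1 was called lower in both lines, at background throughout and with the call in T lost without mVec replicate 2, and 0 were called higher.

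Atf4 and 6 further genes of the amino acid and stress response, listed because many of the 10 enzymes are known ATF4 targets, were all called higher in both lines (7 of 7), Cebpb among them with all groups at background. The share called higher among probe sets above the limit on at least 1 array was 36.2% in T and 36.9% in PT. The call of Cebpb in T was lost in 2 of 13 alternatives, so 6 to 7 were called in T when arrays were left out. Ddit3, a stress transcription factor, was 10.5-fold higher in T and 8.40-fold higher in PT, and Trib3, a pseudokinase induced by ATF4, was 6.99-fold higher in T and 5.99-fold higher in PT. Cebpg, a partner of ATF4 on DNA, rose by 1.94 ± 0.24 in T and by 2.43 ± 0.24 in PT. Asns, asparagine synthetase, was 3.13-fold higher in T, and Atf5 was 4.45-fold higher in PT. Atf4 itself, named after its value was seen, was 2.67-fold higher in T and 2.52-fold higher in PT. Atf5 was called lower in T than in PT (-1.04 ± 0.23, limma adjusted p = 0.0237), and 3 of 14 alternatives lost the call.

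**Figure D4:**
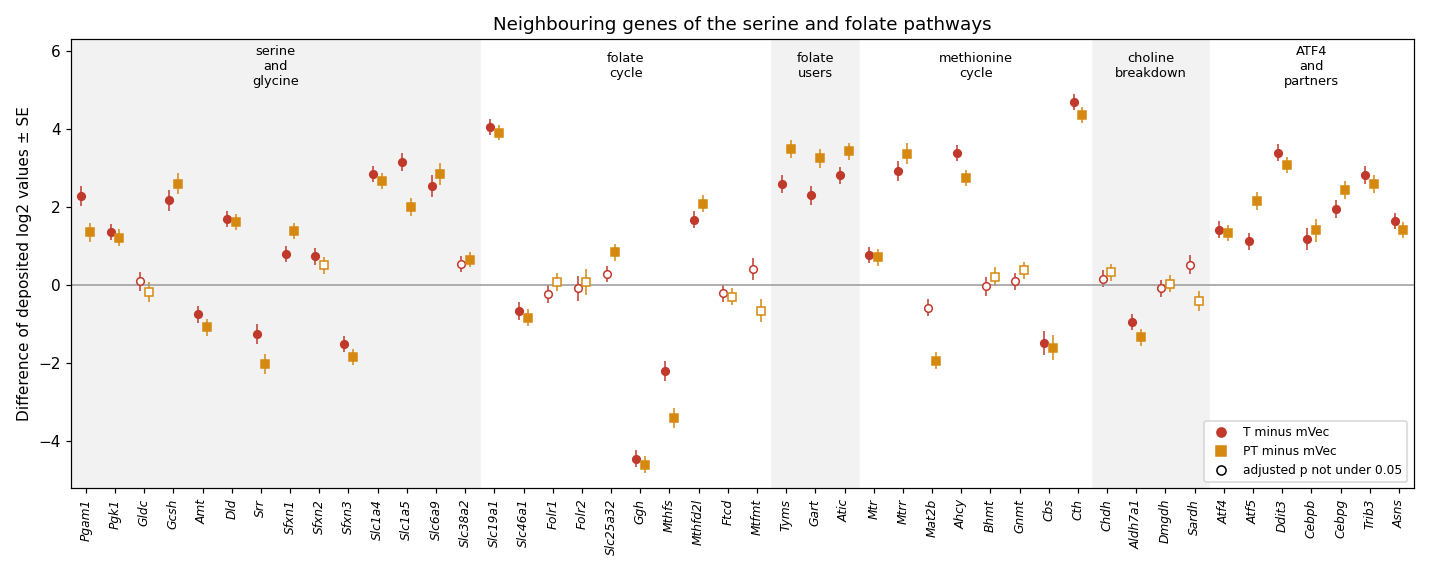
Log2 differences ± SE (y axis) of the measured neighbouring genes, grouped by list, for T minus mVec (red circles) and PT minus mVec (orange squares), with open symbols where the adjusted p was not under 0.05. Slc19a1 (4.04 in T) and Ggh (-4.45 in T) mark the ends of the folate cycle list, and all genes of the folate users and of the ATF4 list lie above 0.

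The genes closest to the median pattern of the 10 enzymes were sought among 7536 other genes above the limit on at least 1 array, by Euclidean distance over 6 arrays after subtracting each gene's mVec mean. They were Nop58, a core protein of small nucleolar ribonucleoproteins (distance 0.19), Wdr75, a ribosome assembly factor (0.27), Mrpl21, a mitochondrial ribosomal protein (0.28), Timm44, a mitochondrial import protein (0.29), and Slc1a4 (0.29). Nop58 differed by 2.72 in T and 2.80 in PT, beside members' medians of 2.77 and 2.84. This closeness follows from how the genes were chosen and is not a separate result.

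Other transcripts moved with these genes, and their part in the differences was not tested. All 6 measured proliferation markers were called higher in both lines. Of the probe sets above the limit on at least 1 array, 36.2% were called higher in T and 36.9% in PT. Mcm2, of the replicative helicase, was 14.4-fold higher in T and 27.5-fold higher in PT, and Mki67 was 4.47-fold higher in T and 8.13-fold higher in PT. The mVec values of Mcm2, 8.77 and 9.29, lay near the limit and only 1 passed it. For 3 others mVec was at background: Mcm5 was at least 5.58-fold higher in T and at least 9.85-fold in PT, Cdk1 at least 5.79-fold and at least 5.81-fold, and Top2a, a topoisomerase, at least 2.43-fold and at least 7.79-fold. Pcna, the replication clamp, was 1.71-fold higher in T and 1.72-fold higher in PT, each call lost in 2 of 14 alternatives. Between T and PT the median of the 6 was -0.84 with no difference above 0, though those of Pcna (-0.012) and Cdk1 (-0.005) were close to it. Only 1 of the 6 was called between T and PT. Top2a was called lower in T (-1.68 ± 0.30, limma adjusted p = 0.00978), a call lost without T replicate 2 or without PT replicate 2.

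Markers of other cell types and signs of RNA handling also differed, and their part was likewise not tested. Of 7 measured fibroblast markers, both T arrays had 2 above the limit, both PT arrays 0 and both mVec arrays 4. Their summed log2 values ran from 46.5 to 46.6 in T, 43.2 to 43.6 in PT and 76.4 to 76.6 in mVec. Col1a1, Dcn and Postn fell to background in both lines, by at least 31.4-fold, and Col3a1 was lower by 101-fold in T and by at least 111-fold in PT. Col1a2 went the other way and was at least 1.17-fold higher in each line. Lum and Thy1 were never above the limit. None of the 6 keratinocyte and none of the 4 measured leukocyte markers passed the limit on any array, and of 4 endothelial markers only Cdh5 did, in mVec. Of 10 genes kept as signs of RNA handling, both arrays had 8 above the limit in T, 8 in PT and 9 in mVec. Their summed log2 values, 128 in each T array, from 122 to 125 in PT and 134 in each mVec array, hide moves in both directions. Fos, an immediate early gene, was lower by at least 40.6-fold for T and by at least 35.9-fold for PT, and Egr1, another, was 4.57-fold lower in T and 16.6-fold lower in PT. Atf3, a stress gene, was at least 9.78-fold higher in T and at least 9.33-fold higher in PT. The usual reference genes Hprt (5.27-fold in T and 4.86-fold in PT) and Tbp (3.08-fold in T and 3.38-fold in PT) were called higher, while Actb (-0.35 in T and -0.31 in PT) and Gapdh (-0.03 in T and -0.38 in PT) were not called. The marker genes were named after their values were seen. In such bulk RNA, fewer cells of a type and less RNA per cell cannot be told apart.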

How the data were processed

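Total RNA of 6 samples of 3 mouse lines was biotin-labelled and run on Affymetrix Clariom S arrays by a core facility, per the labels' protocols. The authors deposited 1 table of log2 expression values with 28846 rows. That they are on a log2 scale follows from their range (2.42 to 18.2). How the authors corrected and normalized them was not given in the sources used here, so folds hold for the deposited scale only.

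Groups came from the source names. The 22206 gene probe sets were tested as deposited with R 4.3.3 and limma 3.58.1 (lmFit and eBayes, a mean per group, 3 residual and 6.36 prior degrees of freedom, no block and no filter), and 6640 control rows were left out. A symbol was available for 19572 probe sets and 2634 had none. Where a gene had several probe sets, that of the highest mean was used. The fit was tried on simulated data with independent noise and far fewer shifted probe sets than were called against mVec here, so it does not test that setting. Members, lists and limits were chosen with earlier results of these data known. Every member is named, as are, per list and comparison, up to 4 called genes of the largest difference. Equal replicate numbers did not deviate together (r = 0.08, 0.04 and 0.04 between the pairs of groups), so they were not used as pairs. Alternatives were leaving out each array, a replicate block, median centring, quantile normalization, trended and robust moderation, filters on low values, fits of 2 groups, the mean of probe sets, and other background limits. Promoter windows and gene symbols came from RefSeq tables of GRCm38.p6, a build used for names and sequences only.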

Additional observations from a re-analysis of the deposited data

Results flagged for a closer look

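Of the 10 enzymes, 2 were called different between the T and PT lines, by the test of T against PT itself. Over all gene probe sets 5.67% were called higher and 2.70% lower in T than in PT. Phgdh was higher in T than in PT by 4.09 on the log2 scale (limma adjusted p = 0.000216), with 9.00 and 9.83 in T against 5.38 and 5.28 in PT, where it was at background. Shmt1 had a T minus PT difference of -1.97 (limma adjusted p = 0.0110), with 10.10 and 10.04 in T against 11.79 and 12.30 in PT. This call was lost when T replicate 2 or either PT array was left out. No group has the 4 arrays needed to look for outlying arrays.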

How the results depend on the processing

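Over 444 fits of single enzymes, 423 kept direction and side of the threshold, 9 turned sign, all in uncalled differences, 3 lost a call (Shmt1, T minus PT) and 9 gained one. With arrays left out 1 at a time, T minus mVec kept 9 enzymes higher and 0 lower, PT minus mVec had 8 to 9 higher, and T minus PT had 1 higher and 0 to 1 lower, over totals of 370 to 1119 probe sets higher and 176 to 595 lower. A group left with 1 array was assumed to vary like the others. In those fits the T minus mVec difference of Aldh1l1 ran from -0.49 to 0.23, and T minus PT ran from -0.33 to 0.10 for Psat1, -0.0474 to 0.22 for Shmt2, -0.0134 to 0.17 for Mthfd2, -0.70 to 0.0210 for Aldh1l1 and -0.16 to 0.14 for Aldh1l2. Median centring turned Aldh1l1 in T to 0.0512, and quantile normalization turned Aldh1l2 in T minus PT to 0.0262. Trended moderation gave 950 probe sets lower in T minus PT, against 599. The cause of these changes was not tested. Testing only probe sets above background on at least 2 arrays gave 2 enzymes lower in T minus PT, Shmt1 and Psph (adjusted p = 0.0417), where fewer probe sets share the adjustment.

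With the replicate block, 9 enzymes were higher in T and 9 in PT than in mVec, since Phgdh in PT passed (adjusted p = 0.0412), and 1 was higher and 1 lower in T minus PT. Phgdh in PT also passed with either scaling, with either filter and in the fit of 2 groups. Leaving out T replicate 1 or 2 gave the same result as that fit and is not a separate check. The filter on arrays above background kept Phgdh only through its T arrays, so it lends nothing to the comparison of PT with mVec. Centring raised every difference from mVec by about 0.18 in T and 0.19 in PT, and the share of higher calls among all calls, 52.3% in T and 49.9% in PT, became 62.3% and 60.3%. With the background limit at the 90th percentile, 9 enzymes in T, 8 in PT and 7 in mVec were above it on both arrays, against 9, 8 and 6 at the 95th and 6, 6 and 1 at the 99th.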
